A study of Caenorhabditis elegans with 54 samples.

Results

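The 10 genes described here make or shape the eggshell and the outer layers of the Caenorhabditis elegans egg, or bring yolk into the oocyte. They were chosen by symbol (cpg-1, cpg-2, cpg-3, cbd-1, perm-2, perm-4, egg-1, egg-3, chs-1 and rme-2) and matched to the WormBase gene identifiers of the tables. All 10 of 10 were found among 20728 gene identifiers, and each passed the filter on low values in 9 of 9 experiments. For the description they were split into 8 oocyte genes and the pair perm-2 and perm-4, called the perm genes below.

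The worm eggshell is built around the egg just after fertilization, from an outer vitelline layer, a chitin layer and an inner layer of chondroitin proteoglycans, with a permeability barrier beneath. CHS-1 is the chitin synthase, CPG-1 and CPG-2 are chitin-binding chondroitin proteoglycans of the inner layer, and CBD-1 is a chitin-binding protein of the vitelline layer, to which PERM-2 and PERM-4 also belong. EGG-1 is a membrane protein of the oocyte surface that is needed for fertilization. EGG-3 is a phosphatase-like protein that holds CHS-1 and the kinase MBK-2 at the oocyte cortex, and RME-2 is the yolk receptor of the oocyte. CPG-3 is a further chondroitin proteoglycan.

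RNA was sequenced from day 1 adults grown at 20 °C, in 9 experiments each with 3 libraries of RNA bound to ribosomes and 3 of total RNA. In 6 of them ribosomes were immunoprecipitated (IP) through FLAG-tagged RPL-22, a ribosomal protein, expressed from the promoter of nep-17 in the intestine strain (WBM1470, wbmIs131) and of myo-3 in the muscle strain (WBM1339, wbmIs118). A pair of strains used the rab-3 promoter, MSD473 with wbmls99 (neurons A) and WBM1471 with wbmIs133 (neurons B), and the soma strain (WBM1364, wbmIs119) used that of eft-3. The series record gives WBM1471 for the intestine too, and the sample labels were followed. In the ubiquitous strain (MSD470, rpl-22(wbm58)) the tag sat on rpl-22 at its own locus. The other 3 fractions came from sucrose gradients: polysomes of the ubiquitous strain, its 60S, 80S and polysome fractions together (called pooled fractions), and polysomes of wild-type Bristol N2. Total RNA of the same strain stood beside each fraction. Nothing in the labels ties the replicates to separate cultures, so every p-value reflects only how far these libraries scatter, which may be technical.

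Values are normalized counts, scaled by the authors separately in each experiment, so levels are compared within an experiment only. Their sum per library ran from 16486900 to 85848000, and sequencing depth itself is not known from them. From 83 to 7896 listed genes stood at 0, most in neurons A IP replicate 3. The intended tissue was seen in the tissue IPs: 8 of 8 intestine markers rose in the intestine IP (median log2 ratio over total RNA 3.58), 10 of 10 body wall muscle markers rose in the muscle IP (4.89), and 6 of 6 neuronal markers rose in the neurons A IP (6.54) and the neurons B IP (6.51). In the neurons B IP 5 of 8 intestine markers rose as well (median 1.16), with a summed level of 1039400 to 2282500 against 578310 to 761940 in neurons B total RNA. The 10 oocyte and germline markers had median log2 ratios of -0.62 in the muscle IP, -2.36 in the soma IP and -0.85 in the ubiquitous IP. In bulk RNA of this kind, fewer cells of a type and less RNA per cell cannot be told apart.

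In the muscle IP perm-2 and perm-4 rose 28.6-fold and 14.1-fold over total RNA while no oocyte gene rose. The perm genes also had positive ratios in the soma, ubiquitous and gradient fractions, and both fell in the intestine and neuronal IPs. Of the oocyte genes only cpg-3 rose in any experiment, in polysomes of both strains. Calls are limma's on log2(normalized count + 1), fitted to every gene averaging 10 or more, at a Benjamini-Hochberg adjusted p below 0.05. In the muscle IP 2 of the 10 genes rose, where 23.1% of all genes tested rose, and 4 fell, where 13.1% of all genes fell. The soma IP had 1 riser (25.1% of all genes) and 8 fallers (32.7%), and the ubiquitous IP 1 riser (16.9%) and 7 fallers (20.4%). In the intestine IP none rose (17.8% of all genes) and 9 fell (9.61%). In the neurons A IP none rose (15.3%) and 7 fell (12%), and in the neurons B IP none rose (38.7%) and all 10 fell (32.6%). All 10 ratios were negative in these 3 IPs. In polysomes 3 rose and 7 fell in both strains, against 28.4% risen and 30.3% fallen of all genes in the ubiquitous strain and 33.6% and 33.9% in wild type. In the pooled fractions 1 rose (20.6%) and 4 fell (23.1%).

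**Figure D1:**
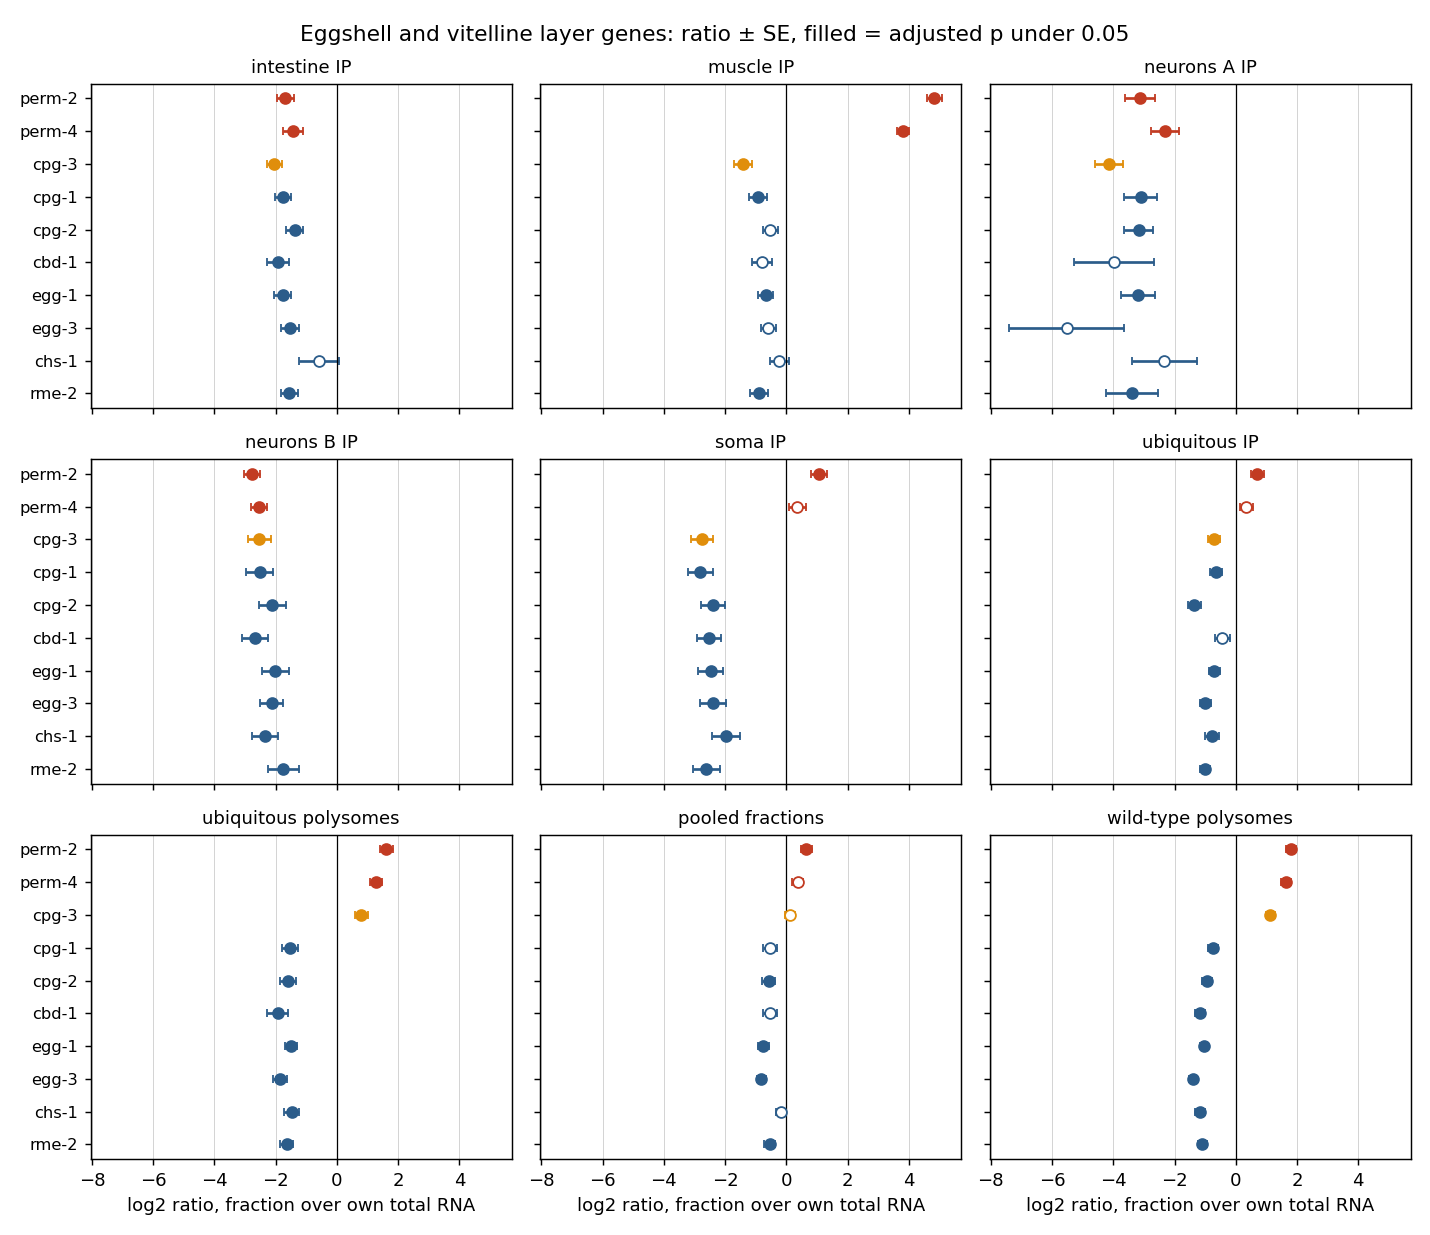
Log2 ratio of each fraction over its own total RNA, with its standard error, for the 10 genes (down each panel) in the 9 experiments; filled points have an adjusted p under 0.05, red marks the perm genes, orange cpg-3 and blue the other oocyte genes. The perm genes stand at 4.84 and 3.82 in the muscle IP and to the right of 0 in the soma, ubiquitous and gradient panels, while the blue points lie left of 0 in every panel.

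perm-2 (WBGene00016636) lies on chromosome IV from 1126790 to 1128865 on the plus strand of build WBcel235, and perm-4 (WBGene00016638) from 1121494 to 1125107 on the minus strand. The pair is divergent, with 1682 bp and no annotated gene between them. Both are protein-coding, and the values are for whole genes. At its end 25 bp of perm-2 overlap C44B12.6 on the other strand, and whether counting used strand is not given in the sources used here. C44B12.6 had a log2 ratio of -0.09 in the muscle IP, beside 4.84 for perm-2. srx-13, a neighbour beyond perm-4, passed the filter only in the neuronal experiments.

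In the muscle IP perm-2 had 392230, 603840 and 512040 normalized counts, against 22551, 15882 and 14485 in muscle total RNA. The lowest IP library lay far above the highest total RNA library, and the log2 ratio was 4.84 (SE 0.24, adjusted p = 4.83e-08). perm-4 had 137720, 184560 and 150680 in the muscle IP, against 12633, 10629 and 10177 in muscle total RNA. Its groups did not overlap either, at a log2 ratio of 3.82 (SE 0.20, adjusted p = 6.73e-08). perm-2 stood further above perm-4 in the IP libraries, by 1.51 to 1.76 on the log2 scale, against 0.51 to 0.84 in the total RNA libraries. Scaled per kilobase of exon, perm-2 averaged 683020 normalized counts in the muscle IP and ranked first of the 10 genes, against 23967 and rank 3 in muscle total RNA.

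Markers of the somatic gonad, whose sheath cells surround the oocytes, were set beside these values. Of 6 gonadal sheath and spermatheca genes 4 rose in the muscle IP, the innexin genes inx-8 (log2 2.80) and inx-9 (2.89) and the homeobox genes ceh-18 (2.37) and lim-7 (0.91), while fkh-6 (0.27) and sth-1 (-0.59) did not pass the test. The summed level of the 6 was 16738 to 21031 normalized counts in the muscle IP and 2409 to 4494 in muscle total RNA. ceh-18 and lim-7 also rose in both neuronal IPs, where inx-8 and inx-9 had negative ratios. The summed level of the 10 body wall muscle markers was 7985900 to 11471000 in the muscle IP and 217400 to 254390 in muscle total RNA. The part of either cell type in the perm values was not tested.

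In the soma IP perm-2 had 51713, 65258 and 61781 normalized counts, against 23880, 38827 and 24215 in soma total RNA. The groups did not overlap, and perm-2 rose with a log2 ratio of 1.07 (SE 0.26, adjusted p = 0.00595). perm-4 had 25857, 34590 and 22217 in the soma IP and 20722, 27389 and 16676 in soma total RNA, which overlap (log2 0.36, SE 0.28, adjusted p = 0.283). None of the 6 gonadal sheath and spermatheca genes was called by limma in the soma IP (1 at its unadjusted 0.05, and 1 in the authors' deposited table), where inx-8 stood at 0.25 and inx-9 at 0.35. Of the other somatic lists 5 of 10 body wall muscle, 4 of 5 epidermal, 4 of 6 neuronal and 4 of 8 intestine markers rose there. myo-3 of the muscle list fell (-1.18, adjusted p = 0.0165). The part of these lists in the perm-2 value was not tested. In these same libraries all 8 oocyte genes fell.

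In the ubiquitous IP perm-2 had 19457, 21997 and 25631 normalized counts, against 10355, 13997 and 17360 in ubiquitous total RNA. Every IP library was above every total RNA library, and perm-2 rose by 0.71 on the log2 scale (SE 0.22, adjusted p = 0.0269). Without replicate 1 or without replicate 2 its log2 ratio was 0.61 or 0.74 (adjusted p = 0.114 or 0.198), and 4 or 3 of the 10 genes fell in place of 7. Over all genes 1093 or 823 rose in place of 2344, and 1527 or 1214 fell in place of 2832. perm-4 had 10584, 12171 and 15485 in the IP and 8019, 10244 and 11800 in total RNA, which overlap (log2 0.35, SE 0.20, adjusted p = 0.207). When all libraries were given the same sum, perm-4 passed the test here (0.59, adjusted p = 0.0242).

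Both perm genes fell in the intestine and in both neuronal IPs. In the intestine IP perm-2 had 3572, 4133 and 4019 normalized counts, against 9825, 15006 and 13305 in intestine total RNA (log2 -1.68, SE 0.27, adjusted p = 0.00294), and perm-4 gave -1.43 (SE 0.32, adjusted p = 0.0129). In the neurons A IP perm-2 had 2157, 995 and 1078, against 12066, 10168 and 12491 in neurons A total RNA (log2 -3.12, SE 0.49, adjusted p = 0.00547). In the neurons B IP perm-2 had 3037, 2949 and 5057, against 24754, 24253 and 23532 in neurons B total RNA (log2 -2.76, SE 0.27, adjusted p = 1.08e-05). perm-4 gave -2.32 in neurons A and -2.55 in neurons B. None of these IP libraries reached its total RNA.

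**Figure D2:**
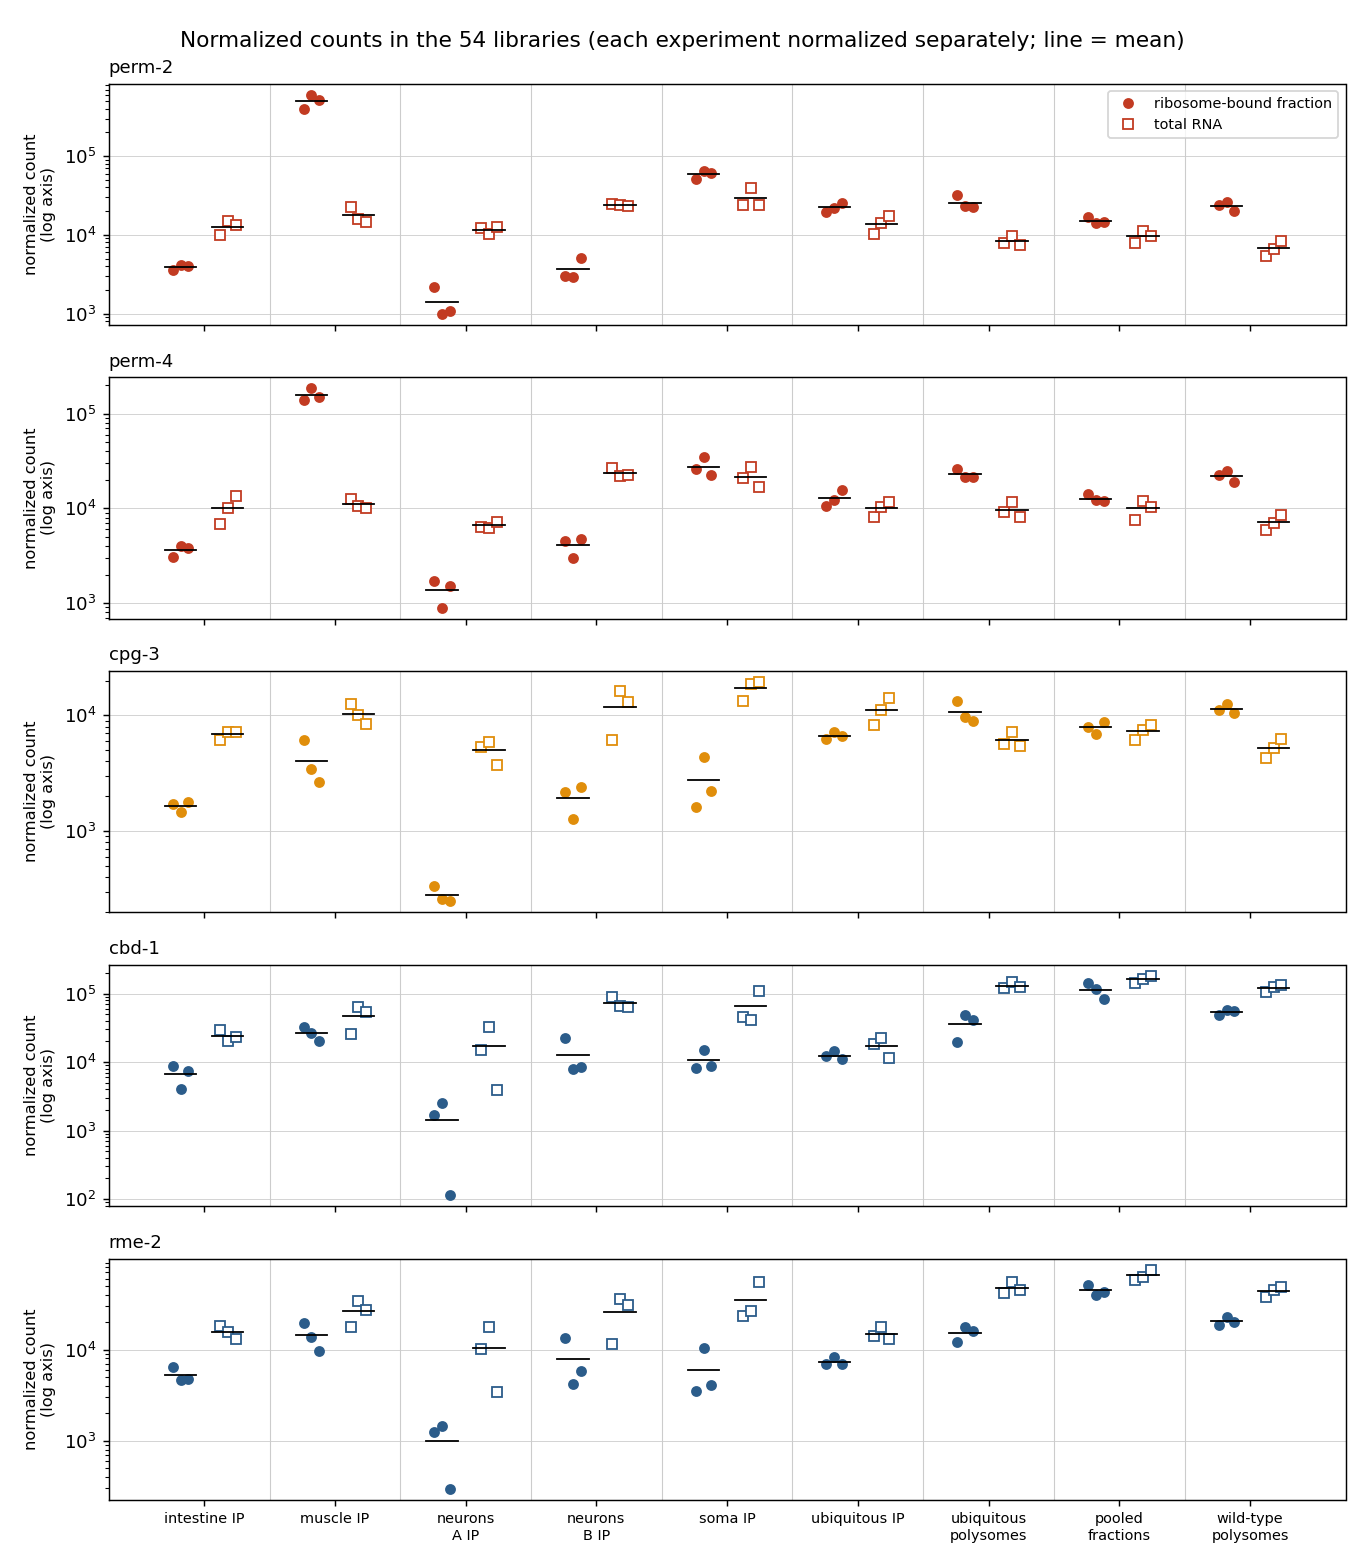
Normalized counts (log axis) of perm-2, perm-4, cpg-3, cbd-1 and rme-2 in all 54 libraries, with filled circles for the ribosome-bound fraction, open squares for total RNA to its right, and a line at each mean of 3 libraries. perm-2 averages 502700 in the muscle IP and 17639 in muscle total RNA, while cbd-1 and rme-2 average lower in the fraction than in total RNA in each of the 9 experiments.

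Levels of the genes were compared per kilobase of exon. On that scale cpg-2 and cpg-1 averaged 52003 and 51830 normalized counts in the total RNA of the wild-type gradients, cbd-1 29017, rme-2 15232, egg-1 11607 and chs-1 4842. cpg-3 averaged 5125 and egg-3 3302 there, and egg-3 was the least abundant of the 10. cpg-1 and cpg-2 did not differ beyond their spread, with 43778, 53495 and 58217 per kilobase for cpg-1 and 44861, 53503 and 57643 for cpg-2. In muscle total RNA the order of means per kilobase was cpg-2, cpg-1, perm-2, cbd-1, perm-4, cpg-3, rme-2, egg-1, egg-3 and chs-1. Its middle ranks lay close together, with 10078 for perm-4 and 10073 for cpg-3.

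The chondroitin proteoglycan gene cpg-1 (WBGene00000465, chromosome III, 4489359 to 4491392) had 6800, 17522 and 7629 normalized counts in the soma IP, against 52678, 52836 and 111880 in soma total RNA. The groups did not overlap, and cpg-1 fell by 2.81 on the log2 scale (SE 0.40, adjusted p = 0.000954). Its partner in the inner layer, cpg-2 (WBGene00015102, chromosome III, 7102092 to 7103990), had 9046, 23139 and 11138 in the soma IP and 52837, 59038 and 110280 in soma total RNA. cpg-2 fell by 2.40 there (SE 0.39, adjusted p = 0.00112). In the ubiquitous IP cpg-2 had the largest fall of the 10 genes, with 17174, 20983 and 16921 in the IP against 37635, 50394 and 53124 (log2 -1.35, SE 0.20, adjusted p = 0.000779), and cpg-1 gave -0.65 (SE 0.20, adjusted p = 0.0281).

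cbd-1 (WBGene00010351, chromosome IV, 11372991 to 11377627), the vitelline layer gene, had 8222, 15172 and 8679 normalized counts in the soma IP, against 46175, 41002 and 109510 in soma total RNA (log2 -2.53, SE 0.39, adjusted p = 0.00103). All 3 IP libraries were lower than all 3 total RNA libraries. In the ubiquitous IP its values of 12071, 14304 and 10998 overlapped with 18217, 22195 and 11608 in total RNA (log2 ratio -0.44, SE 0.24, adjusted p = 0.18). cbd-1 and the perm genes, which encode proteins of the same layer, had ratios of opposite sign in the muscle, soma, ubiquitous and gradient fractions. Their signs were the same in the intestine and neuronal IPs. Not all of these ratios passed the test. That of cbd-1 did not in the muscle, neurons A and ubiquitous IPs and the pooled fractions. That of perm-4 did not in the soma and ubiquitous IPs and the pooled fractions.

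rme-2 (WBGene00004374, chromosome IV, 5470026 to 5473174), the yolk receptor gene, had 3556, 10323 and 4065 normalized counts in the soma IP, against 23110, 26554 and 55257 in soma total RNA (log2 -2.61, SE 0.44, adjusted p = 0.00127). It had 6895, 8367 and 6904 in the ubiquitous IP, against 14014, 17498 and 13143 in ubiquitous total RNA, with no overlap (log2 -1.01, SE 0.17, adjusted p = 0.00155). In neurons B its IP values of 13510, 4238 and 5800 overlapped with 11391, 35723 and 31052 in total RNA, and it fell by 1.75 (SE 0.51, adjusted p = 0.0114). Leaving out replicate 2 or replicate 3 there gave adjusted p = 0.138 or 0.15. egg-1 (WBGene00015083, chromosome III, 5728180 to 5730159) fell by 2.47 in the soma IP, 0.70 in the ubiquitous IP and 2.01 in the neurons B IP, where its adjusted p was 0.0581 without replicate 3.

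egg-3 (WBGene00009701, chromosome II, 10882408 to 10884441) had 528, 1482 and 985 normalized counts in the soma IP, against 3610, 3939 and 7998 in soma total RNA (log2 -2.40, SE 0.43, adjusted p = 0.00152). chs-1 (WBGene00000496, chromosome I, 7554855 to 7559916), whose product EGG-3 holds at the cortex, had 1631, 2936 and 3463 in the soma IP, against 7122, 6737 and 21066 in total RNA (log2 ratio -1.98, SE 0.45, adjusted p = 0.00428). Neither gene's soma groups overlapped. Against the mean log2 of the other replicates, soma total RNA replicate 3 held more of all 8 oocyte genes, by a median of 1.08. On the same measure it held less of perm-2 (-0.33) and perm-4 (-0.51). The annotation puts 21 bp of egg-3 and 42 bp of egg-1 under genes of the other strand, and chs-1 shares 78 bp with T25G3.3 on its own strand.

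In the muscle IP the 8 oocyte genes had a median log2 ratio of -0.73, beside -0.14 for all genes. cpg-1 had 33502, 27015 and 19003 normalized counts, against 32056, 66566 and 55701 in muscle total RNA, which overlap (log2 -0.93, SE 0.30, adjusted p = 0.0327). rme-2 gave -0.89 (adjusted p = 0.0387), egg-1 -0.68 (adjusted p = 0.0482) and cpg-3 -1.42 (adjusted p = 0.00322), and these 4 were the fallers. cbd-1 (-0.78), egg-3 (-0.60), cpg-2 (-0.52) and chs-1 (-0.22) did not pass the test. Muscle total RNA replicate 1 stood apart, with a median difference from the other replicates of -0.74 on the log2 scale over the 8 oocyte genes. The difference was 0.57 for perm-2. cpg-3 alone of the 8 was higher in that library, with 12520 normalized counts against 10108 and 8435 in the others. Without that library all 8 fell, cbd-1 with -1.18 (adjusted p = 0.00265) and chs-1 with -0.60 (adjusted p = 0.0303). Leaving out replicate 1 of both groups also gave 8 fallers, where 4215 of all genes fell in place of 1923. Without replicate 2 or replicate 3 cpg-3 alone fell, where 492 or 319 of all genes fell. Scaling every library to an equal sum, which moved the median of all genes by -1.39 here, also gave 8 fallers and left both perm genes risen, but 10759 of all 14681 genes fell under it.

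In the intestine IP 7 of the 8 oocyte genes fell, by 1.37 (cpg-2) to 2.04 (cpg-3) on the log2 scale. cbd-1 had 8661, 4005 and 7488 normalized counts there, against 29449, 20569 and 23050 in intestine total RNA (log2 -1.92, SE 0.36, adjusted p = 0.00616). chs-1 was the exception, with 2467, 10277 and 1527 in the IP and 6002, 5855 and 3639 in total RNA (log2 ratio -0.57, SE 0.65, adjusted p = 0.516). Intestine IP replicate 2 alone was high, and without it chs-1 gave -1.38 (adjusted p = 0.0204). Without replicate 1 cpg-3 was the only one of the 10 genes still past the threshold, and 6 of all genes fell, against 1310 with every replicate. The log2 ratios were then -1.74 for cpg-1, against -1.77 with every replicate, and -1.79 for perm-2.

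The neurons A libraries were uneven in these genes. chs-1 had 964, 515 and 5074 normalized counts in the IP and 3214, 4521 and 22024 in total RNA, so that replicate 3 was high in both fractions. cbd-1 had 1694, 2506 and 114 in the IP and 15033, 32853 and 3955 in total RNA, with replicate 3 low in both. egg-3 was listed at 0 in IP replicate 3 and had 112 and 154 in the other IP libraries, against 1250, 2024 and 671 in total RNA. These were the 3 genes not called in neurons A, with adjusted p = 0.137, 0.0612 and 0.0686. The replicate numbers were taken to pair the libraries here by the correlation rule given below. Not every library correlated best with its own number. With the replicate as a block all 3 were called (adjusted p = 0.00642 for chs-1, 0.00246 for cbd-1, 0.0223 for egg-3), where 3295 of all genes fell in place of 1738. Of the 5 oocyte genes called, cpg-3 fell furthest (log2 -4.14, SE 0.45, adjusted p = 0.00181). Without replicate 1 or without replicate 2 none of the 10 genes passed, and 0 of all genes fell, against 1738 with every replicate. By limma without adjustment, at 0.05, 9 of the 10 genes fell in each of these fits, as did 1067 or 1703 of all genes. The log2 ratios were -3.46 and -3.10 for cpg-1, against -3.11 with every replicate, and -3.44 and -3.01 for perm-2. In the neurons B IP the 8 oocyte genes fell, with log2 ratios of -2.67 (cbd-1) to -1.75 (rme-2). Neurons B IP replicate 1 stood above the mean log2 of the other replicates for each of them, by a median of 1.46. For cpg-3 its value of 2156 was still below the 2382 of replicate 3.

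In polysomes cpg-3 rose together with the perm genes. These are also the shortest of the genes chosen by symbol, with exons of 1028 bp (cpg-3), 736 bp (perm-2) and 1106 bp (perm-4). The part of exon length in the polysome ratios was not tested. In wild-type polysomes cpg-3 (WBGene00011063, chromosome I, 7244937 to 7246295) had 11146, 12657 and 10459 normalized counts, against 4314, 5182 and 6310 in total RNA. The groups were well apart, and cpg-3 rose with a log2 ratio of 1.13 (SE 0.14, adjusted p = 6.29e-06). In polysomes of the ubiquitous strain it had 13381, 9725 and 8967, against 5643, 7146 and 5466 in its total RNA (log2 ratio 0.80, SE 0.21, adjusted p = 0.0107), and without replicate 3 the adjusted p was 0.0847. In the pooled fractions, which also hold monosomes and large subunits, its 8002, 6958 and 8841 overlapped with 6148, 7435 and 8316 in total RNA (log2 ratio 0.12, SE 0.16, adjusted p = 0.558). In all 6 IPs, by contrast, cpg-3 fell, with log2 ratios of -4.14 in the neurons A IP to -0.71 in the ubiquitous IP. Setting cpg-3 apart from the other oocyte genes was decided after its values had been seen. cpg-3 overlaps R06C7.6 by 221 bp on the other strand. R06C7.6 gave -1.61 in wild-type polysomes, -0.30 in polysomes of the ubiquitous strain and 0.01 in the pooled fractions.

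perm-2 had 24253, 26089 and 20021 normalized counts in wild-type polysomes, against 5468, 6560 and 8367 in total RNA (log2 ratio 1.80, SE 0.16, adjusted p = 1.87e-07). perm-4 had 22599, 25059 and 18875, against 5842, 7069 and 8497 in total RNA (log2 ratio 1.64, SE 0.15, adjusted p = 3.15e-07). In polysomes of the ubiquitous strain perm-2 gave 1.61 (SE 0.21, adjusted p = 0.000461) and perm-4 1.27 (SE 0.20, adjusted p = 0.00101). In the pooled fractions perm-2 rose by 0.66 (SE 0.17, adjusted p = 0.00546) and lost the call without replicate 1 (adjusted p = 0.0873), and perm-4 stood at 0.37 (adjusted p = 0.109). In the gradients inx-8, inx-9 and sth-1 of the gonadal list also rose, with 0.96, 1.12 and 0.90 in wild-type polysomes, and all 10 body wall muscle markers rose there (median 1.11). So did 6 of 6 sperm markers (1.87), 8 of 8 intestine markers (1.03), 4 of 5 epidermal markers (1.21) and 4 of 6 neuronal markers (0.61). The part of these cell types in the perm values was not tested.

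The 7 other oocyte genes fell in both polysome experiments, by 0.74 (cpg-1) to 1.39 (egg-3) in wild type and by 1.47 (chs-1) to 1.94 (cbd-1) in the ubiquitous strain. Of the 10 oocyte and germline markers 8 fell in wild-type polysomes (median -1.27) and 9 in those of the ubiquitous strain (-1.82). glh-1 of that list rose in wild-type polysomes (0.64, adjusted p = 0.000721). The part of oocyte number in these values was not tested. egg-3 had 1946, 2254 and 2597 normalized counts in wild-type polysomes, against 5256, 6161 and 6354 in total RNA (SE 0.13, adjusted p = 3.53e-07). cbd-1 had 49294, 58296 and 56287, against 107020, 126320 and 134100 (log2 -1.16, SE 0.16, adjusted p = 1.41e-05). In polysomes of the ubiquitous strain cbd-1 had 19802, 48452 and 41292, against 119790, 146850 and 126150 in total RNA. All 7 lay below total RNA in every library of both strains, where 35.3% of all genes did so in the ubiquitous strain and 35.9% in wild type. In the pooled fractions egg-3 (-0.82), egg-1 (-0.75), cpg-2 (-0.57) and rme-2 (-0.55) fell, while cpg-1 and cbd-1 (both -0.54) and chs-1 (-0.17) did not pass the test. Without replicate 2 egg-3 alone remained past the threshold there, and without replicate 3 egg-1 and egg-3 did. In these fits 2600 and 2723 of all genes fell, in place of 3423. Without replicate 1, 6 of the 10 genes fell, as did 3102 of all genes.

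Whether the IP ratios themselves differed was tested as the muscle or soma ratio minus the ubiquitous ratio, over 12 libraries each. Between muscle and ubiquitous, both perm genes were higher, perm-2 by 4.13 (SE 0.34, adjusted p = 1.02e-07) and perm-4 by 3.47 (SE 0.29, adjusted p = 1.16e-07), where 25.1% of all genes were higher. No oocyte gene was called, where 14% of all genes were lower, and the differences ran from -0.70 (cpg-3, SE 0.38) to 0.83 (cpg-2, SE 0.34). By limma without adjustment over genes, cpg-2 alone of the oocyte genes was under 0.05, and its adjusted p was 0.0631. Scaled to equal sums, which moved the median difference of all genes by -1.63, 7 of the 8 were lower in muscle, as were 9801 of all 14509 genes, and both perm genes stayed higher.

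Between soma and ubiquitous, of the 8 oocyte genes 6 were lower in soma, where 26.3% of all genes were lower, and neither perm gene was called, where 18.4% of all genes were higher. cpg-1 differed by -2.16 (SE 0.50, adjusted p = 0.00443), cbd-1 by -2.09 (SE 0.51, adjusted p = 0.00554), cpg-3 by -2.04 (SE 0.45, adjusted p = 0.00326) and egg-1 by -1.77 (SE 0.48, adjusted p = 0.00968). rme-2 differed by -1.60 (adjusted p = 0.0245) and egg-3 by -1.41 (adjusted p = 0.0362). cpg-2 (-1.05, adjusted p = 0.0837) and chs-1 (-1.21, adjusted p = 0.0942) did not pass. For perm-2 the difference was 0.36 (SE 0.35, adjusted p = 0.41) and for perm-4 0.01 (SE 0.35, adjusted p = 0.984). Without soma total RNA replicate 3, rme-2 (-1.22, adjusted p = 0.0515) and egg-3 (-1.05, adjusted p = 0.0757) lost their calls, and without replicate 3 in every group egg-1 did too (adjusted p = 0.0863).

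Differences between genes within a library do not depend on how the library was scaled. perm-2 minus the median of the 8 oocyte genes, on the log2 scale of normalized counts, was 4.77 to 5.95 in the muscle IP and -0.61 to 0.59 in muscle total RNA. It was 3.06 to 4.20 in the soma IP against -0.77 to 0.80 in soma total RNA, and 1.51 to 1.92 in the ubiquitous IP against -0.05 to 0.49 in ubiquitous total RNA. In wild-type polysomes it was 0.41 to 0.76, against -2.29 to -2.01 in total RNA, and in the pooled fractions it averaged -0.995, against -2.42 to -1.95. None of these pairs of ranges overlapped. In the intestine and the neuronal IPs the ranges overlapped with those of total RNA, for example -0.35 to 0.27 in the intestine IP and -0.46 to 0.47 in intestine total RNA.

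**Figure D3:**
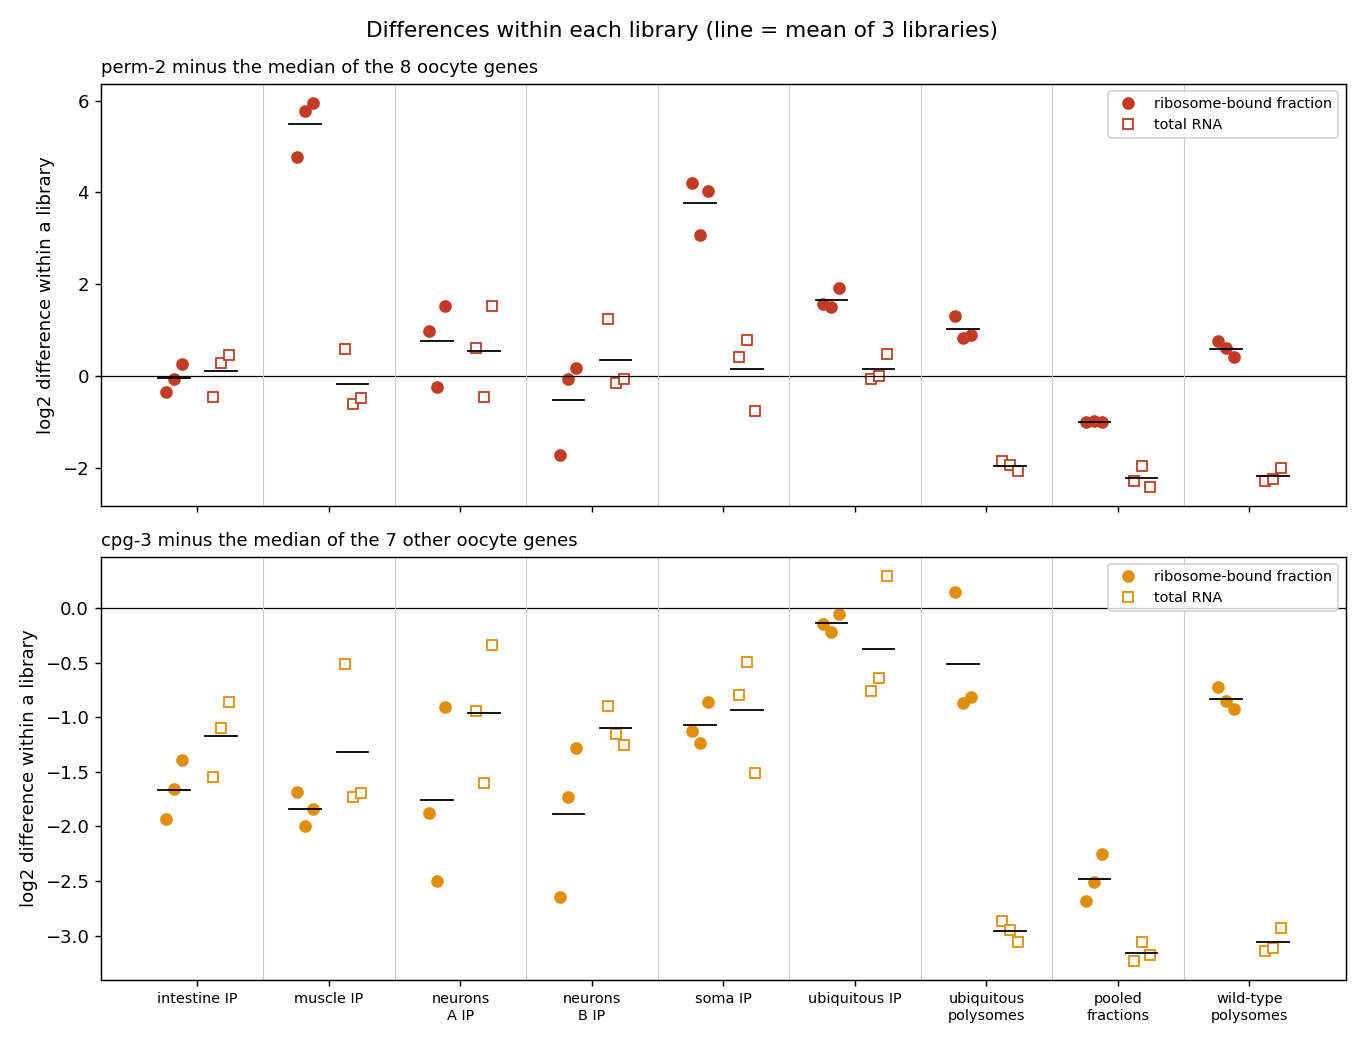
Log2 difference within each of the 54 libraries, for perm-2 minus the median of the 8 oocyte genes (upper panel) and for cpg-3 minus the median of the 7 others (lower panel), with filled circles for the ribosome-bound fraction, open squares for total RNA to its right and a line at each mean. In the muscle IP the upper points lie at 4.77 to 5.95, and the total RNA of the gradient experiments lies lower than that of the IP experiments in both panels.

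The total RNA libraries were not alike in these genes. In the 9 total RNA libraries of the gradient experiments perm-2 minus the oocyte median was -2.42 to -1.85, against -0.77 to 1.53 in the 18 of the IP experiments. For perm-4 the ranges were -2.36 to -1.66 and -1.31 to 1.36, and for cpg-3 against the other 7 they were -3.23 to -2.87 and -1.74 to 0.29. The ranges did not overlap for any of the 3 genes. By exon length these 3 are the shortest of the genes chosen by symbol, with 736 bp (perm-2), 1028 bp (cpg-3) and 1106 bp (perm-4). The other 7 range from 1723 bp (cpg-2) to 4293 bp (chs-1). The part of exon length in these differences was not tested. Within strain MSD470 ubiquitous total RNA gave -0.05 to 0.49 for perm-2 in the IP experiment and -2.06 to -1.85 in the polysome experiment. Per the labels the gradient samples were cleared lysates of gravid worms. How total RNA of the IP experiments was prepared is not given in the sources used here, so lysis and experiment cannot be told apart between them. The gap is present within the 1 strain MSD470. Each ratio above is against the total RNA of its own experiment.

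Genes with a pattern of ratios like that of a member were ranked over the experiments. Likeness was the root mean square difference of the 9 log2 ratios, over 11771 genes with a symbol that passed the filter in all 9 experiments. The 5 genes nearest to perm-2 were far-2 (0.26), a fatty acid and retinol binding protein gene, the myosin light chain gene mlc-2 (0.40), ctsa-1.1 (0.41), the serpin gene srp-1 (0.45) and the SPARC gene ost-1 (0.47). Those nearest to perm-4 were C44B7.5 (0.37), the troponin T gene tnt-2 (0.42), fkb-5 (0.46), plag-15 (0.50) and upb-1 (0.51). perm-4 ranked 13 for perm-2 and perm-2 ranked 6 for perm-4 (0.54). mlc-2 and tnt-2 are also on the muscle marker list, with muscle IP log2 ratios of 5.51 and 4.84.

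Nearest to cpg-1 were the centromere gene hcp-1 (0.18), the anillin gene ani-2 (0.23), maph-1.2 (0.23), the Piwi gene prg-1 (0.24) and egg-1 (0.25). Nearest to rme-2 were gfat-2 (0.20), an enzyme gene of the pathway that supplies the sugar for chitin, the importin gene ima-2 (0.21), egg-1 (0.21), dut-1 (0.21) and sumv-2 (0.22). cpg-2 ranked 7 for rme-2 (0.25) and 52 for cpg-1 (0.36). cpg-3 ranked 2007 for cpg-1 (1.09), and perm-2 ranked 8441 (2.75).

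A list of 30 other genes of eggshell making, egg activation and yolk uptake was tested in the same fits, and all 30 passed the filter in each experiment. In wild-type polysomes 4 rose and 24 fell, in polysomes of the ubiquitous strain 4 and 23, and in the pooled fractions 3 and 21. In the soma IP 3 rose and 24 fell, in the neurons B IP 2 and 24, in the muscle IP 7 and 6, in the intestine and ubiquitous IPs none and 16, and in the neurons A IP none and 11. The 7 risen in muscle stand beside 23.1% risen of all genes, the 16 fallen in intestine beside 9.61% fallen, and the 24 fallen in soma and in wild-type polysomes beside 32.7% and 33.9%. Where none rose by limma, 2 did at its unadjusted 0.05 in intestine, 0 in ubiquitous and 0 in neurons A, and 2, 0 and 1 did in the authors' deposited table. Their median log2 ratio was -0.997 in wild-type polysomes, -1.68 in the soma IP and -0.41 in the muscle IP, beside 0.02, -0.09 and -0.14 for all genes tested.

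Of this list gna-2, gfat-1 and gfat-2 each fell in 8 of 9 experiments, as did perm-1, dgtr-1, cpg-8, sqv-4 and mig-22. gna-2 and the gfat genes act in making the sugar nucleotide from which chitin is built, and sqv-4 and mig-22 serve chondroitin synthesis. Other genes of the list went the other way and are named after their values were seen. gna-1 rose in 5 experiments, rme-6 in 4, rme-4 in 2 and rme-1 in 1, and each fell in 0. gna-2 averaged 1255 ± 349 normalized counts in wild-type polysomes and 4377 ± 82 in total RNA (SD, n = 3 each; log2 -1.84, adjusted p = 1.44e-07). The phosphatase-like genes egg-4 and egg-5, a near-identical pair whose reads may be shared between them, fell in 7 experiments, as did egg-6, the kinase gene mbk-2, perm-5, sqv-5 and sqv-6. perm-1, whose name comes from the same permeable-egg phenotype as perm-2 and perm-4, gave -0.94 in the muscle IP (adjusted p = 0.0111) and -2.28 in the soma IP (adjusted p = 0.00102), and it fell in both. cpg-8, a chondroitin proteoglycan gene, fell in 8 experiments and rose in the muscle IP, with 21927 ± 6186 against 4643 ± 556 in total RNA (SD, n = 3 each; log2 2.21, adjusted p = 2.21e-05).

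The chondroitin proteoglycan genes cpg-9 and cpg-7 are named after their values were seen. cpg-9 averaged 513700 ± 187420 normalized counts in the muscle IP and 4445 ± 2458 in muscle total RNA (SD, n = 3 each; log2 6.91, SE 0.38, adjusted p = 7.89e-08). In all cpg-9 rose in 5 of 9 experiments and fell in 2. Its rises included the soma IP (2.30, adjusted p = 0.00103) and wild-type polysomes (1.58, adjusted p = 1.41e-07). Its falls included the neurons B IP (-1.08, adjusted p = 0.0141). cpg-7 rose in 4 experiments, among them the soma IP (2.15, adjusted p = 0.00188) and wild-type polysomes (2.00, adjusted p = 6.3e-07). It fell in 1, the muscle IP (-0.97, adjusted p = 0.0113).

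**Figure D4:**
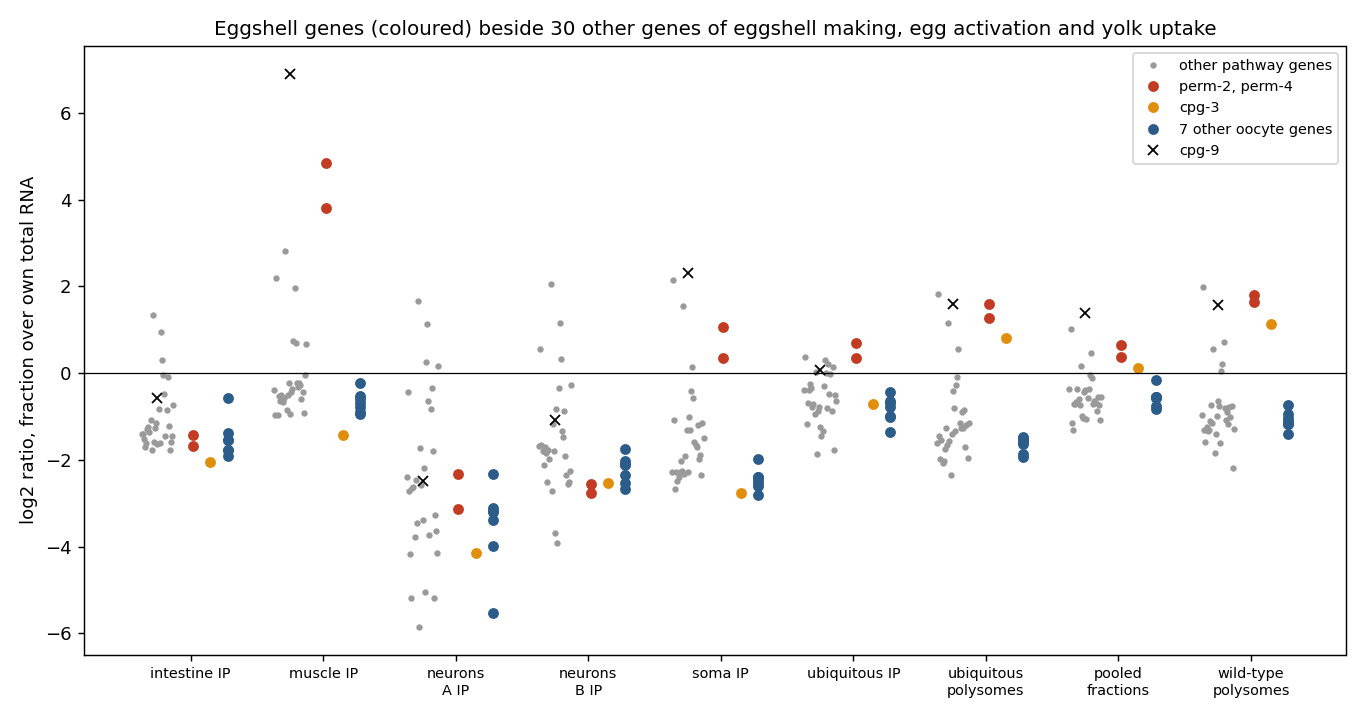
Log2 ratio of each fraction over its own total RNA in the 9 experiments, for the perm genes (red), cpg-3 (orange), the 7 other oocyte genes (blue), cpg-9 (cross) and the remaining genes of the 30-gene pathway list (grey). In the muscle IP cpg-9 stands at 6.91 and the perm genes at 4.84 and 3.82, with most other points between -1.42 and 1.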

How the data were processed

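The submitters' processing notes name the build ce11 and, as tools, DESeq2 1.30.1, kallisto 0.46.1 and R 4.0.4, without saying what each did. Each of the 9 tables deposited by the authors holds normalized counts for its libraries (a signal, scaled table by table). They are not whole reads: 1.73 to 12.8% were whole multiples within 0.01, so read depth is unknown. The authors' log2 fold change and its standard error (unit: log2), Wald statistic (a score), p-values and −log10 of the adjusted p were also deposited and served only as an alternative test.

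Genes were matched to symbols and positions of Ensembl release 115 (WBcel235). Ratios were tested with limma 3.58.1 (R 4.3.3, trend and empirical Bayes, two-sided) on log2(normalized count + 1), on genes averaging 10 or more across the experiment's libraries, with Benjamini-Hochberg adjustment over all of them and a threshold of 0.05. Differences between IPs were interaction terms. Tables and plots used Python 3.11.15, numpy 2.4.6, pandas 2.3.3 and matplotlib 3.10.9. The script was tested on simulated data.

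The 10 genes, the lists and the tests were chosen with earlier results of these data known. Genes named beside the 10 were the 5 nearest in ratio to perm-2, perm-4, cpg-1 and rme-2, and the gonadal list. Also named were 12 of the pathway genes called most often in the same direction. Ties at 7 experiments were broken by name, with perm-5, sqv-5 and sqv-6 named after the ties were seen. cpg-7, cpg-9, gna-1, rme-1, rme-4 and rme-6 of that list were named after their values were seen. Replicate numbers were taken to pair libraries where every correlation of deviations between a fraction and its total RNA exceeded 0.1, which held in intestine (lowest 0.304), neurons A (0.313) and ubiquitous (0.187). Every library correlated best with its own number in intestine, ubiquitous and soma (lowest 0.081), but not in neurons A. Alternatives were a replicate block, pseudocounts of 0.5 and 5, no filter, equal-sum scaling, the authors' test and leaving out each replicate. Leaving out single libraries was added after the data had been seen. Epidermis and sperm markers were also listed: in the muscle IP 0 of 5 epidermal markers rose and 2 fell, and 0 of 5 tested sperm markers rose and 4 fell.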

Additional observations from a re-analysis of the deposited data

Results flagged for a closer look

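In the test of the difference itself (limma interaction over 12 libraries), 8 of the 20 differences computed for the 10 genes passed the adjusted threshold. Of all genes, 25.1% were higher and 14% lower between muscle and ubiquitous, and 18.4% and 26.3% between soma and ubiquitous. The count for the 10 genes is thus close to the share of all genes called. Between the muscle IP and the ubiquitous IP, perm-2 was higher by 4.13 and perm-4 by 3.47 on the log2 scale, with all 3 muscle IP libraries above all 3 total RNA libraries for both genes. Between the soma IP and the ubiquitous IP, the ratio was lower in soma for cpg-1 (-2.16), cbd-1 (-2.09), cpg-3 (-2.04), egg-1 (-1.77), rme-2 (-1.60) and egg-3 (-1.41).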

How the results depend on the processing

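Of 1050 values of single genes under an alternative, 922 kept their direction and their side of the threshold, 44 gained a call, 68 lost one and 16 changed sign. perm-2 and perm-4 stayed risen in the muscle IP under every alternative run. With a replicate block the fallers were 1 in muscle and 2 in the pooled fractions, where the replicate numbers were not taken to pair the libraries. No filter on low values left 2 fallers in muscle. The block also called chs-1 lower between soma and ubiquitous (adjusted p = 0.0141) and, beside the 3 genes given for neurons A, changed no other call. In neurons A 3295 of all genes fell with the block in place of 1738. In intestine 2891 fell with the block in place of 1310, and 3668 fell in the authors' test and 5641 under equal-sum scaling. Equal-sum scaling gave 8 fallers in muscle, 2 risers and 3 fallers in the ubiquitous IP and 7 lower genes between muscle and ubiquitous, with 10759, 1030 and 9801 of all genes fallen or lower in these comparisons. The shift of the all-gene median under it was -1.39 in muscle, -1.22 in intestine, -0.46 and -0.42 in the neurons A and B experiments, -0.38 and -0.26 in wild-type and ubiquitous polysomes, 0.10 in soma, 0.25 in ubiquitous and -0.15 between soma and ubiquitous. Over the alternatives that leave out a replicate or a library, fallers ranged from 1 to 10 in intestine, 1 to 8 in muscle, 0 to 10 in neurons A, 8 to 10 in neurons B, 3 to 8 in ubiquitous and 1 to 6 in the pooled fractions. In the same fits the fallers among all genes went down to 6 in intestine, 319 in muscle, 0 in neurons A (1067 by limma without adjustment) and 1214 in ubiquitous. They went up to 4215 in muscle without replicate 1, and to 5003 in neurons A and 3500 in ubiquitous without replicate 3. With a replicate left out they ran from 3695 to 5969 in neurons B and from 2600 to 3102 in the pooled fractions. Risers ranged from 0 to 1 in ubiquitous and the pooled fractions and 2 to 3 in ubiquitous polysomes. Lower genes ranged from 0 to 1 between muscle and ubiquitous, 1 without replicate 1, and from 3 to 6 between soma and ubiquitous. The other counts did not move: 2 risers in muscle, 1 riser and 8 fallers in soma, 7 fallers in ubiquitous polysomes, 3 risers and 7 fallers in wild-type polysomes.

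All 16 sign changes were of values that had not passed the test as reported; under equal-sum scaling most of the muscle ones then did, as lower. Under equal-sum scaling the muscle minus ubiquitous difference was -0.81 for cpg-2, -1.62 for egg-1, -1.24 for egg-3, -1.09 for chs-1 and -1.53 for rme-2, and the soma minus ubiquitous difference of perm-4 was -0.14. Over the fits without one replicate the muscle minus ubiquitous difference ranged from -0.71 to 0.012 for cpg-1, -0.98 to 0.15 for cbd-1, -0.33 to 0.26 for egg-1, -0.030 to 0.63 for egg-3 and -0.41 to 0.46 for rme-2. Without muscle total RNA replicate 1 it was -0.18 for egg-1 and -0.14 for rme-2. The soma minus ubiquitous difference of perm-4 ranged from -0.16, without soma total RNA replicate 3, to 0.055, and was -0.030 without replicate 2. cpg-3 in the pooled fractions ranged from -0.0037 to 0.23. The cause of these changes was not tested. Leaving out a replicate leaves 2 libraries per group, and the unknown depth limits what can be said of low values.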
